A study of Mus with 5 samples.

Results

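The sites described here are the intergenic BATF binding sites that were found again after treatment with retinoic acid (RA). They are peaks of the BATF control list on chromosomes 1-19, X and Y that the deposited annotation classes as intergenic and that had a peak of the BATF RA list within 5 kb. The rule kept 1781 sites, out of 2861 intergenic and 15810 BATF control peaks in all. The sites were therefore selected on measured values, namely a call in both BATF lists, and no difference between the BATF lists was tested on them. The other 1080 intergenic control peaks had no RA peak within 5 kb and serve as the comparison.

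The data come from chromatin immunoprecipitation followed by sequencing (ChIP-seq), which recovers the DNA fragments held by a protein and marks where they pile up. The cells were wild-type (WT) mouse CD8 T cells from spleen, stimulated through CD3 and CD28 with IL-2 present for 24 h and rested in IL-2 for another 24 h, after which they received 50 nM RA or none (control) for 1 h. The labels call the cells naive CD8 T cells although the protocol activates them, and the treatment labels name a different interleukin for each ChIP condition where the protocol names IL-2. Antibodies against RARα and BATF gave 4 peak lists, all called against 1 normal rabbit IgG library whose RA status the labels do not state. Each list was called on 2 pooled ChIP alignment files, so there is 1 list per condition, no spread between replicates exists and a difference between conditions is given without a test. Intervals on shares are Wilson 95% intervals, which cover counting error only and treat neighbouring peaks as separate. The BATF control pool held 23110180 fragments and the BATF RA pool 16424269, the RARα pools 22655611 (control) and 22475060 (RA), and the IgG library 11410673. Of 10 marker genes of CD8 T cells, 9 had a promoter-class BATF control peak, against none of 8 B cell, none of 8 myeloid, none of 4 CD4 T cell and 1 of 5 NK cell markers. A BATF control peak of any class was assigned to 9 CD8 T cell, 6 B cell, 4 myeloid, 3 NK cell and no CD4 T cell markers. Kept intergenic sites were assigned to 5, 2, 4, 2 and none in the same order. The contrast was thus clear at promoters and not at the kept sites.

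BATF is a basic leucine zipper factor of the AP-1 family. It binds DNA as a dimer with a JUN protein and, in T cells, often beside the interferon regulatory factor IRF4, and it is known as an early organizer of the effector program after T cell receptor stimulation. RARα is a nuclear receptor that binds DNA with a retinoid X receptor and responds to RA. Sites far from promoters are commonly enhancers, which act on genes at a distance, so the gene nearest to a site need not be the gene it serves.

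Whether an intergenic site was found again followed its strength in the control list. Fold is the number of fragments at the summit plus 1, divided by the local IgG level plus 1. Of the 612 intergenic control peaks with a fold under 4, 41.2% had a BATF RA peak within 5 kb (37.3 to 45.1). The share was 53.7% of 1124 peaks at a fold of 4 to 6, 75.4% of 752 at 6 to 10 and 94.5% of 274 at 10 to 20, and all 99 peaks with a fold of 20 or more were kept. Taken over all strengths, 62.3% of intergenic peaks were kept (60.5 to 64.0), which is close to the 64.5% of intronic peaks (62.8 to 66.1) and below the 74.3% of promoter peaks (73.4 to 75.2). The median kept site had a control fold of 6.14 and 34 fragments at its summit, and the median site without a RA peak had a fold of 4.56 and 24 fragments. The RA pool was 0.711 times as deep as the control pool, so 24 control fragments correspond to 17.1 at RA depth, whereas the weakest RA peak paired with a kept site had 10 fragments. How far the lower depth set which weak sites were found again was not tested.

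**Figure D1:**
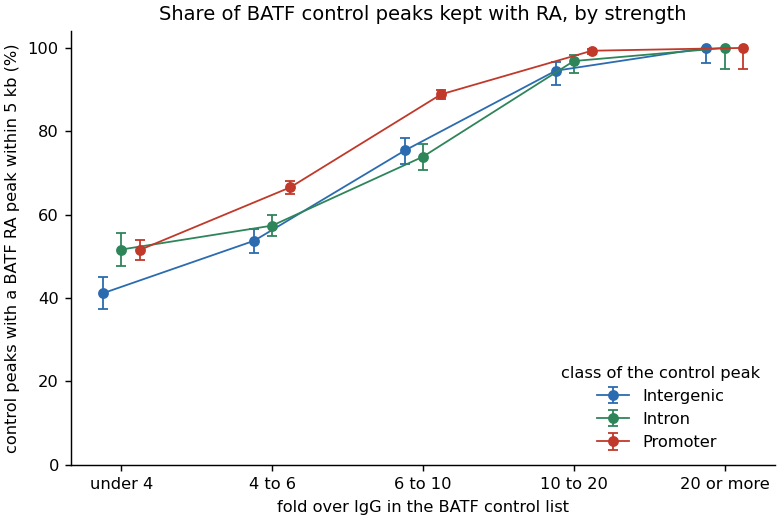
Share of BATF control peaks with a BATF RA peak within 5 kb (y axis, percent) in bins of control fold over IgG (x axis), for intergenic, intronic and promoter peaks, with Wilson 95% intervals as bars. Intergenic peaks go from 41.2% in the weakest bin to 100% of 99 peaks in the strongest, and below a fold of 10 their shares lie under those of promoter peaks.

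The kept sites had similar BATF levels in both lists, somewhat lower with RA per sequenced fragment, a direction that turned when the lists were scaled to the median of all kept BATF sites. Levels are given as fragments at the summit per 1000000 ChIP fragments (FPM), each list at its own summit. The control level had a median of 1.47 FPM (quartiles 1.08 and 2.16, range 0.563 to 20.3), and the RA level a median of 1.46 FPM (quartiles 1.10 and 2.25, range 0.609 to 20.8). The median ratio of the RA to the control level was 0.96 (0.95 to 0.98, a binomial interval of the median), and 55.8% of the sites had a lower level with RA (53.4 to 58.0). The ratio of the fold values had a median of 0.93, with 59.0% of the sites lower (56.7 to 61.3). At 1371 of the 1781 sites the RA peak overlapped the control peak, and at the other 410 the nearest RA peak lay apart, at a median gap of 1972 bp. In 372 of those 410 cases that RA peak overlapped a different BATF control peak, so the pair compares neighbouring sites. The 410 sites were weak, with a median control fold of 4.56 against 6.92 at the 1371.

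At the 1371 sites with an overlapping RA peak, both lists placed the summit at nearly the same base, with a median distance of 33 bp. There the median level ratio was 0.92 and 64.3% of the sites were lower with RA. Across these sites the levels in the control and RA lists had a Spearman correlation of 0.86, and the sites share the IgG library and were required to be called in both lists. Restricting them to the 1053 pairs of summits within 100 bp left the median ratio at 0.94. By control fold, the median ratio was 1.08 among 116 overlapping pairs under 4, 0.97 among 385 at 4 to 6, 0.88 among 513 at 6 to 10, 0.89 among 258 at 10 to 20 and 0.91 among 99 at 20 or more. A weak control peak enters only where its RA peak was called, so high ratios in the weakest bin follow in part from the choice of sites, and nothing is read from them.

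Ratios at promoters were lower. Over all kept promoter sites the median level ratio was 0.84 (0.84 to 0.85). The median level ratio at overlapping promoter pairs was 0.81, with 82.3% lower, and at overlapping intron pairs 0.90, with 66.9% lower. A level at least 1.5-fold lower with RA was found at 140 of the 1781 intergenic sites (7.86%), beside 14.3% of all 11046 kept BATF sites, and a level at least 1.5-fold higher at 191 (10.7%), beside 9.04%. Among overlapping pairs only, 123 intergenic sites were at least 1.5-fold lower and 25 were higher, so most of the higher ratios came from pairs of neighbouring peaks. At the promoter pairs 20.2% were at least 1.5-fold lower. These values describe 1 pool per condition, and the part of antibody yield or of the pool's quality in a shift common to many sites cannot be told apart from binding. Dividing by the median ratio of all kept BATF sites, 0.89, put 36.7% of the intergenic sites lower and the rest higher or equal.

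**Figure D2:**
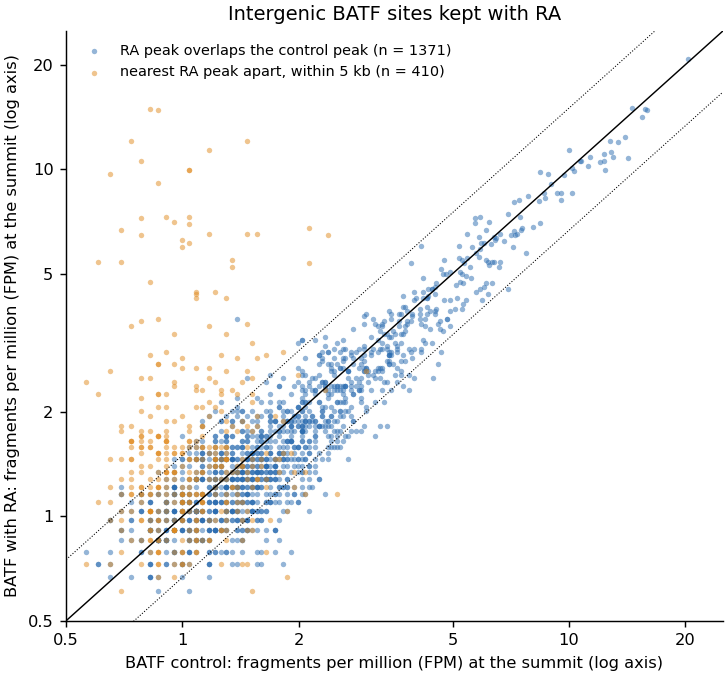
BATF level at each of the 1781 sites in the control list (x axis) and at the nearest RA peak (y axis), in FPM at the summit on log axes. The solid line marks equal levels and the dotted lines a 1.5-fold difference; the 1371 overlapping pairs follow the line, and the points far above it are among the 410 sites whose RA peak lay apart.

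The 10 strongest sites had level ratios of 0.76 to 1.10. The site of highest fold, at chr10:44821341-44822496 (mm10), had a fold of 61.2 in the control list and 55.4 with RA, from 247 and 174 fragments, or 10.7 and 10.6 FPM. It lies in a gene desert for which the annotation names no gene, 293 kb from Prdm1, which encodes the effector regulator Blimp-1, and 245 kb from Prep on the other side. Neither RARα list had a peak within 5 kb of it.

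The site with the second highest fold, at chr17:48332140-48333345 in the cluster of Trem and Treml receptor genes, had a fold of 58.9 in the control and 60.3 with RA. It is annotated as a piece of an endogenous retrovirus, RLTR19-int of the ERVK family, and it overlapped a RARα control peak of fold 2.52. At chr16:91366306-91367427, a site 5356 bp from Ifnar2, which encodes a subunit of the type I interferon receptor, had a fold of 52.4 and 52.9 and overlapped a RARα control peak of fold 4.12. These were the only strong sites of the 10 with a RARα peak on them, and neither overlapped a RARα RA peak.

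Further strong sites lay 89.1 kb from Egln3, an oxygen-sensing prolyl hydroxylase (fold 53.1 and 46.1), 1877 bp from Zdhhc14 (51.2 and 37.2), and 25.7 kb from Ezh2, the histone methyltransferase of Polycomb repressive complex (46.1 and 45.9). Sites 10010 bp from Yae1d1 (47.7 and 46.4), 41.0 kb from Auh (46.6 and 38.5) and 13.3 kb from Pigt (46.1 and 37.6) completed the group together with the next one. The site 10.2 kb from Cyp8b1 and 15.4 kb from the chemokine scavenger Ackr2 went from 14.2 to 10.8 FPM. Its ratio of 0.76 had a 95% binomial counting interval of 0.63 to 0.91, and in the other 9 sites the interval of the level ratio included 1.

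The lowest and highest ratios of fold came from sites of modest strength. Among overlapping pairs, a site 3135 bp from Znrf4 went from 42 fragments in the control to 12 with RA (fold 10.3 and 3.90), and its level ratio was 0.40 (0.19 to 0.78). A site 3026 bp from Tsc22d2 went from 44 to 13 fragments (fold 11.5 and 4.63). At a site 10.1 kb from Nanos3, for which the annotation also lists Mir23a, Mir27a and Mir24-2 among other genes, 36 and 13 fragments gave a fold of 9.42 and 3.61. Within Nr3c1, the glucocorticoid receptor gene, 38 and 14 fragments gave a fold of 7.71 and 3.26. The site 102 bp from Cic also had a low ratio of fold (6.66 and 2.72), but its level was 2.21 FPM in the control list and 2.25 with RA, and the IgG level under it was 2.69 times as high at the RA summit. The detailed annotation names a promoter at the Cic and Nr3c1 sites, although their class is intergenic. It names a part of a gene at 117 of the 1781 sites. The paired RA peak was classed as promoter at 89 sites and as exon at 7.

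At the other end, a site between Tbc1d1 and Klf3 at chr5:64651320-64651702 went from 32 fragments to 61 (fold 5.43 and 13.5), a level ratio of 2.68 (1.72 to 4.25) at an equal IgG level. It overlapped a RARα control peak of fold 3.02. Among these extreme ratios, the Znrf4 site, of lowest ratio, also overlapped a RARα control peak of fold 3.02, and the Ifngr2 site below 1 of fold 9.73. The site 12.5 kb from Ifngr2, a subunit of the interferon gamma receptor, had a fold of 3.95 in the control and 9.69 with RA, but its level was 1.69 and 1.83 FPM and the IgG level at the RA summit was 0.34 times that at the control summit. At the site 52.4 kb from Pkdcc (fold 3.71 and 6.94) the level was 1.21 and 1.22 FPM and the IgG ratio 0.42. The IgG level was also lower at the RA summit, at 0.71 and 0.67 times the control, for the site 4884 bp from Creb1 (fold 3.09 and 5.65) and that 36.7 kb from Tgfbr2 (4.09 and 7.48), where the level ratios were 1.47 (0.80 to 2.68) and 1.41 (0.80 to 2.47). Over the overlapping pairs, 40 had a fold at least 1.5 times higher with RA; in 30 of them the scaled IgG level was lower by over 5%, and in 12 the BATF level itself was at least 1.5-fold higher. In the 177 pairs with a fold at least 1.5 times lower, the IgG level was higher by over 5% in 87 and the BATF level was at least 1.5-fold lower in 98.

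At the edge of the 5 kb rule, the last 5 sites inside it lay 4875 to 4933 bp from their RA peak, near Pcgf5, Nabp1, B4galnt1, Sit1 and Usp3, with control folds of 4.69, 5.85, 4.86, 3.95 and 5.67. The first 5 outside lay 5007 to 5068 bp away, near Gm30599, Ndc80, Enthd1, Satb1 and Cycs, with folds of 4.20, 3.95, 2.87, 4.94 and 3.46. Both groups are weak peaks whose own interval holds no RA peak.

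By position, the kept sites were mostly close to genes rather than deep in deserts. The median distance to the nearest protein-coding gene of the RefSeq table was 12755 bp (quartiles 3606 and 38461 bp), against 14445 bp for the intergenic sites without a RA peak. The annotation classes by its own gene models, and 203 sites (11.4%) overlapped a RefSeq protein-coding gene despite their class. Another 578 lay within 10 kb of one, 662 at 10 to 50 kb, 170 at 50 to 100 kb and 168 (9.43%) beyond 100 kb. The kept share was 64.9% of the intergenic peaks inside a gene (59.4 to 69.9), 60.3% at 50 to 100 kb, which was the lowest share (54.5 to 65.8), and 60.6% beyond 100 kb (54.8 to 66.2), with overlapping intervals. The median control fold was 5.80 at sites inside a gene and 7.21 beyond 100 kb. In 221 sites (12.4%) a promoter-class BATF control peak was found within 5 kb. The sites had a median width of 569 bp, against 387 bp for those without a RA peak, and 15 lay on chromosome X and none on Y.

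Repeats were named at 304 of the kept sites (17.1%, 15.4 to 18.9) and at 21.0% of the intergenic sites without a RA peak (18.7 to 23.5), with 17.8% of kept intronic and 2.84% of kept promoter sites beside them. Long terminal repeats of endogenous retroviruses were the largest class with 127 kept sites (7.13%), followed by 78 sites in SINE elements and 56 in LINE elements. The single element named most often was ID_B1, at 13 kept and 7 other sites. MTD and ORR1E, retroviral repeats of the MaLR group, were named at 8 kept sites each, and at 6 and 7 sites without a RA peak.

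Many of the kept sites sat in runs. Chained at gaps of at most 5 kb, the 1781 sites formed 1351 stretches, of which 1046 held a single site, 218 held 2 and 61 held 3, with 18 of 4, 4 of 5 and 4 of 6 sites. In all, 735 sites (41.3%) had another kept site within 5 kb. In such runs several control peaks share 1 RA peak: the 1781 sites were paired with 1494 different RA peaks.

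Beside Dad1, at chr14:54218351-54233875, 6 sites covered 15525 bp. Downstream of Tcra, the gene of the T cell receptor alpha chain, this neighbourhood is known for the enhancer that drives Tcra. The strongest site, 1610 bp from Dad1, had a fold of 24.7 in the control and 16.1 with RA, from 114 and 58 fragments, and a level ratio of 0.72 (0.51 to 0.99). The other sites had control folds of 3.67 to 10.7. The stretch held 5 BATF RA peaks, 4 sites overlapped one, and 3 sites overlapped RARα control peaks, of fold 2.77, 5.13 and 4.21, with no RARα RA peak on any of them.

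Between Cd8b1 and Cd8a, which encode the CD8 coreceptor chains, 6 sites stood within 6737 bp at chr6:71351242-71357978, a region known for enhancers of these genes. Their control folds were 3.49, 3.21, 8.19, 5.93, 4.66 and 5.16 from left to right. The RA list had a single peak there, of fold 4.70 with 24 fragments, which overlapped the strongest site alone (53 control fragments, level ratio 0.64, 0.38 to 1.05). The other 5 counted as kept through this neighbour. No RARα peak overlapped any of the 6.

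The stretch 16.3 kb from Il10rb, a subunit of the IL-10 receptor, held 6 sites at chr16:91442118-91452918 with control folds of 4.15 to 6.07. It had 2 RA peaks, of fold 4.89 and 5.70. The stretch in the RefSeq gene Maml2, a Notch coactivator, held 6 sites of fold 3.95 to 7.51 and 2 RA peaks, of fold 4.37 and 4.51. A stretch of 5 sites near Grap, an adaptor of receptor signaling, was led by a site of fold 40.5 in the control and 31.0 with RA, from 286 and 164 fragments (level ratio 0.81, 0.66 to 0.98). The sites at both of its flanks were weak, with folds of 5.11 to 6.59.

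**Figure D3:**
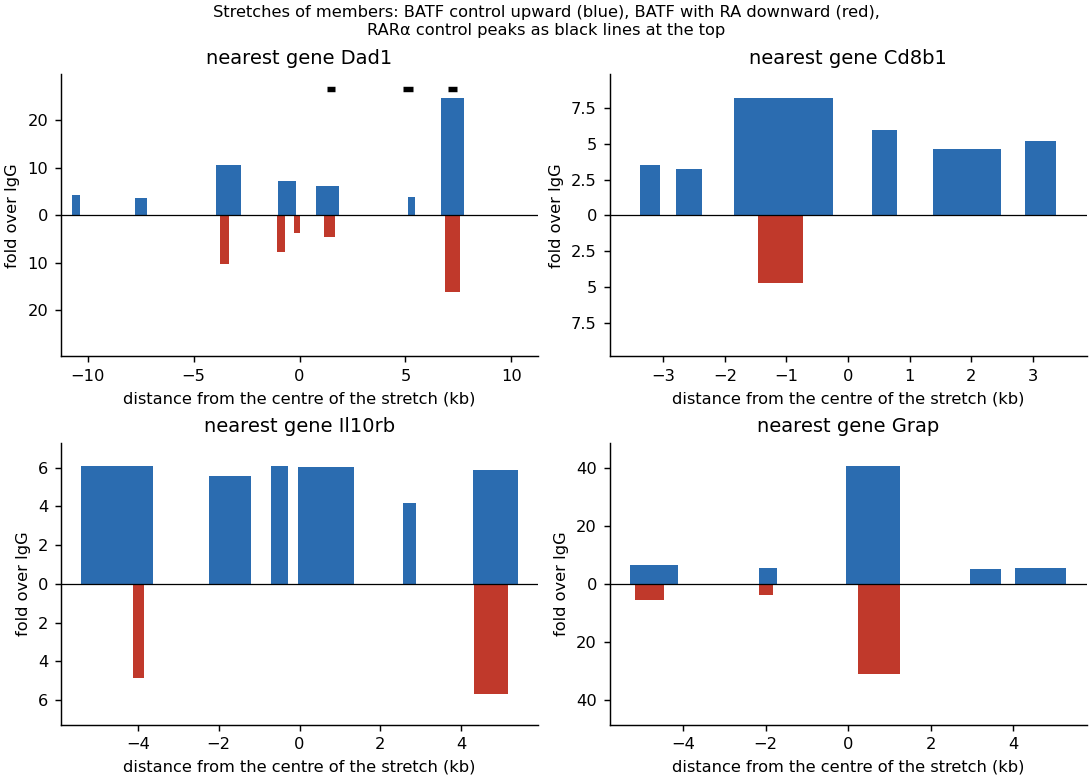
BATF peaks in 4 stretches of kept sites, by distance from the centre of the stretch in kb (x axis) and fold over IgG (y axis), with control peaks drawn upward in blue, RA peaks downward in red and RARα control peaks as black lines at the top. The Cd8b1 stretch has 6 control peaks and 1 RA peak, whereas the leading peaks beside Dad1 and Grap are present in both lists; the leftmost control peak drawn beside Dad1 is not among the 6 sites.

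Several regulators of T cell state were among the genes that were nearest to the most kept sites, often at long distances. By nearest protein-coding gene, Ets1, a transcription factor of lymphocytes, had the most with 12, of control fold 3.58 to 41.8. Of these 12 sites, 6 overlapped a RA peak, and at Dad1 4 of 10 did. Bach2, a repressor that competes at AP-1 motifs and restrains effector differentiation, had 10 with folds of 3.91 to 27.7, Dad1 had 10, and the antiproliferative Btg1 had 9. With 8 each followed Cxcr4, a chemokine receptor, Id2, a partner of E proteins in effector cells, Chd2, Ift57 and Nabp1. At Cxcr4 all 8 overlapped a RA peak, none of its intergenic sites was without one, and the folds ran from 5.31 to 22.5 in the control and from 3.48 to 22.1 with RA. At Bach2 9 of 10 overlapped and 8 further intergenic sites had no RA peak. Intergenic sites without a RA peak numbered 5 at Ets1, 5 at Dad1, 3 at Btg1 and 2 at Id2. At Btg1, 4 of the 6 overlapping sites were higher with RA, with a median level ratio of 1.09, and at Id2 6 of 7 were lower, with a median of 0.91. By the annotation, which lists every gene within about 100 kb, the genes with the most sites were A930006K02Rik with 12, Ifnar2 and Il10rb with 11, and Abhd4, Cd47, Dad1, Ifnar1, Ift57 and Olfr49 with 10. Since neighbours share sites, the Ifnar2, Il10rb, Ifnar1 and A930006K02Rik counts describe 1 cluster of interferon and IL-10 receptor genes.

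The annotation assigned at least 1 kept site to 3407 of 21883 protein-coding genes (15.6%). Lists of genes with known roles in T cells are set beside that share below. They were chosen with results of these data in view and hold genes with many BATF sites, so the counts describe where kept sites lie and are no evidence that a list stands apart. The median level ratio of overlapping pairs was 0.92 over all 1371. Across the lists it ran from 0.84 for chemokines (4 pairs) and for AP-1, BATF and IRF factors (22 pairs) to 1.01 for memory and stemness factors (24 pairs). It was 1.00 for effector and exhaustion factors (28 pairs), 0.87 for cytokines and costimulatory receptors, and 0.88 for survival genes.

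Among transcription factors, 14 of 22 AP-1, BATF and IRF genes had kept sites, 27 in number, with a median level ratio of 0.84. The strongest was a site of fold 40.6 and 32.6 assigned to Irf2, which lies 93.3 kb away from it and within Enpp6. A site 1783 bp from Bach2 had a fold of 27.7 and 21.8, and a site within Bach2 went from 80 to 38 fragments (level ratio 0.67, 0.44 to 0.995). A site 9753 bp from Fosb, a partner of JUN proteins, had a fold of 13.7 and 11.5. Batf itself had 1 kept site, 25.3 kb away, with a control fold of 6.37.

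Of 22 effector and exhaustion factors, 13 had 38 kept sites, and 16 of these sites (42.1%) had a RARα control peak within 5 kb, beside 16.7% of all kept sites. This was not the highest share. Across the lists of T cell genes it ran from 3.1% of 32 memory and stemness sites to 44.4% of 18 survival gene sites. Runx3, which promotes the CD8 lineage and cytotoxic genes, had 7 sites, 3 of them overlapping a RARα control peak. The strongest of these, 11.4 kb away, had a BATF fold of 14.6 and 13.2 and a RARα fold of 5.28 in the control list, with no RARα RA peak on it. Hif1a, the oxygen-sensing factor, had 3 sites, led by 1 at 12.8 kb with a fold of 19.95 and 19.3. The site of Id2 named by the annotation, 93.1 kb away, had a fold of 11.3 and 10.4. Prdm1 had 5 sites within the reach of the annotation, with folds of up to 10.5.

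The memory and stemness list had 9 of 15 genes with 32 sites, 1 of which lay near a RARα control peak. That site lay 9301 bp from Klf2, a factor of quiescence and trafficking, and 9251 bp from Eps15l1. It had a BATF fold of 20.6 and 22.8 and a RARα control fold of 7.93. A site within Foxp1 had a fold of 16.9 and 13.2. A site 57.4 kb from Tcf7, the factor TCF-1 of naive and memory cells, but nearer to Vdac1 (19.2 kb), had 11.0 and 12.2. A site 47.7 kb from Id3, but nearer to Rpl11 (42.1 kb), had 11.5 and 12.4. The median level ratio of this list was 1.01, and 11 of 24 overlapping pairs were lower with RA.

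Cytokine genes with kept sites were 13 of 22, with 31 sites. The site 8750 bp from Il10 had a fold of 41.4 in the control and 40.7 with RA, from 161 and 122 fragments. The site 60.1 kb from Il21, but nearer to Cetn4 (15.6 kb), had 26.1 and 19.2. That 13.8 kb from Tnfsf8 had 18.4 and 18.2, and that 6092 bp from Il17a had 14.3 and 10.6. Ifng, the gene of interferon gamma, had 5 kept sites of fold up to 13.4 and no intergenic site without a RA peak. Of the 5 Ifng sites, 1 overlapped a RARα control peak. None of the 4 strongest sites of the list, those named at Il10, Il21, Tnfsf8 and Il17a, overlapped a RARα peak. In the chemokine list 6 of 10 genes had 6 sites, among them 1 at 3605 bp from Ccl5 with a fold of 6.59 and 6.01.

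Chemokine receptors and homing molecules had kept sites at 18 of 26 genes, 40 in number. At S1pr1, the receptor for egress from lymphoid tissue, a site 43.3 kb away had 23.6 and 27.8, a level ratio of 1.23 (0.95 to 1.59), and overlapped a RARα control peak of fold 3.02. A site 25.1 kb from Cxcr4 had 22.5 and 22.1, and a site 25.1 kb from Ccr1 had 21.2 and 19.6. Ccr9, a gut-homing receptor known to respond to RA, had 1 kept site at 32.8 kb with a control fold of 8.73. Ccr7, which guides cells to lymph nodes, had 8.

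Cytokine receptors and STATs were the list with the most kept sites, 57 at 20 of 32 genes, beside 16 intergenic sites without a RA peak. The site within Il2rb, the beta chain of the IL-2 receptor, had a fold of 23.4 and 27.8, and that 16.3 kb from Il6st had 15.1 and 13.9. A site 87.7 kb from Il15ra, but nearer to Il2ra (25.3 kb) and Rbm17 (13.4 kb), had 27.2 and 26.3. Ifngr1 had 7 sites, 4 of which overlapped a RARα control peak. In this list 16 sites (28.1%) lay near a RARα control peak and 4 near a RARα RA peak, and the median level ratio was 0.99.

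Inhibitory receptors and brakes had kept sites at 11 of 21 genes (21 sites), costimulatory receptors at 8 of 17 (16 sites), cytotoxic molecules at 11 of 20 (11 sites) and survival genes at 6 of 14 (18 sites). A site 18.9 kb from Btla, an inhibitory receptor, but nearer to Atg3 (15.8 kb), had a BATF fold of 14.1 and 12.6. Its RARα fold was 4.89 in the control list and 3.04 with RA. The site 57.9 kb from Socs1, a brake on cytokine signaling, but 196 bp from Rmi2, had 14.5 and 11.8. Pdcd1, which encodes PD-1, had 1 site at 2597 bp with a control fold of 5.22. Sites assigned to Tnfrsf1b had 23.4 and 19.6 (at 94950 bp, nearer to Tnfrsf8) and 16.1 and 11.0 (7522 bp). Among the granzyme genes, a site 79.8 kb from Gzma, but nearer to Mcidas (12.7 kb), had 16.0 and 16.5. A site 11.2 kb from Bbc3, which encodes the death-promoting PUMA, but nearer to Ccdc9 (7789 bp), had 12.7 and 5.45. It held 61 and 28 fragments (level ratio 0.65, 0.40 to 1.03).

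The retinoid pathway had kept sites at 7 of 24 genes, 14 in number. Rara had 2 of them, the strongest with a control fold of 5.34. The glycolysis and nutrient transport list had 4 of 15 genes with 11 sites, including 2 of the 4 strongest within Slc2a3, the glucose transporter GLUT3, with a fold of 7.68 and 8.53 at the first and 7.39 and 3.91 at the other (28 and 17 fragments, level ratio 0.85, 0.44 to 1.62). Of the lists for other cell types, 2 of 8 B cell genes had 3 kept sites and 4 of 8 myeloid genes had 7, among them a site within Spi1 of fold 4.78 and 5.50 and a site 1019 bp from Itgam of fold 7.90 and 7.27.

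**Figure D4:**
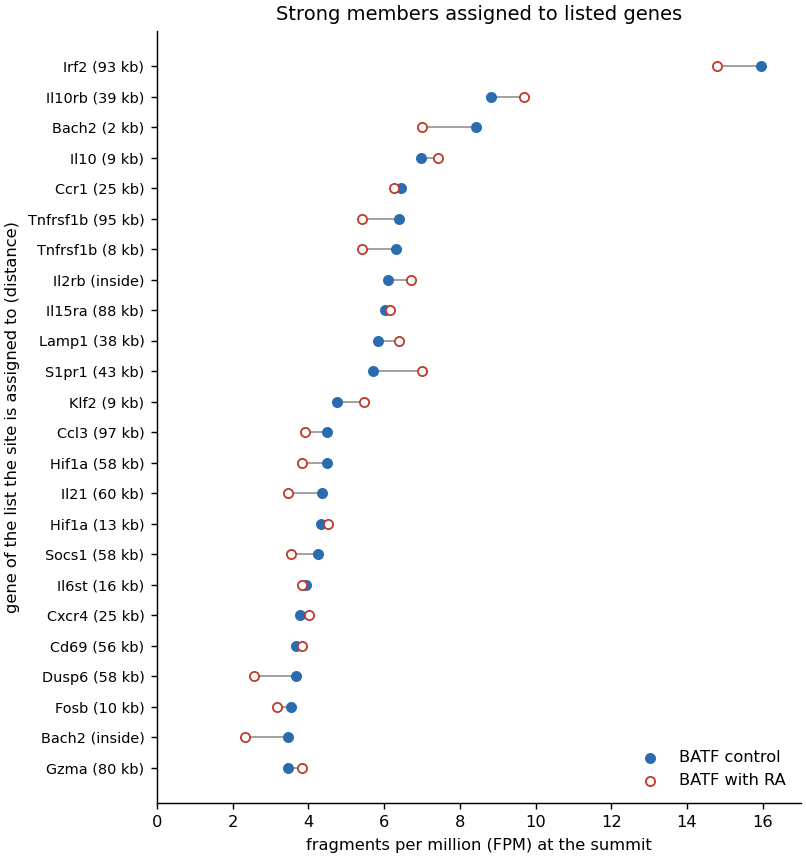
BATF level of 24 strong named sites with an overlapping RA peak that are assigned to genes of the lists (y axis, with the distance to that gene), in FPM at the summit (x axis), for the control list (filled blue) and the RA list (open red). The levels lie close together at most sites, from 16.0 and 14.8 at the Irf2 site to 3.46 and 3.84 at the Gzma site.

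RARα peaks were measured with another antibody and were not used to choose the sites. Of the 1781 kept sites, 298 had a RARα control peak within 5 kb, or 16.7% (15.1 to 18.5), beside 7.16% of all BATF control peaks. For intergenic sites without a BATF RA peak the share was 5.56% (4.34 to 7.09), for kept intronic sites 13.8% (12.4 to 15.4) and for kept promoter sites 5.29% (4.79 to 5.84). The intervals of kept and other intergenic sites did not overlap, but they treat neighbouring peaks as separate and hold no spread between replicates. As 735 kept sites (41.3%) had another kept site within 5 kb, several sites can count the same RARα peak. The difference between kept and other intergenic sites is therefore given without a test. Strength in the BATF control list also differed between these groups, and its part in the difference was not tested. The shares by bin of control fold, in the bins with over 100 sites of both kinds, were 19.4% of kept and 3.89% of other sites at a fold under 4, 14.9% and 7.12% at 4 to 6, and 15.2% and 4.86% at 6 to 10. Both calls reach 5 kb, so sites with many peaks around them can enter both counts. At a fold under 4, only 116 of the 252 kept sites overlapped their BATF RA peak. A RARα control peak overlapped 10.6% of kept and 3.33% of other intergenic sites. By distance to the nearest protein-coding gene, the share of kept sites was 12.3% inside one (8.48 to 17.5), 18.2% up to 10 kb away, 15.4% at 10 to 50 kb, 13.5% at 50 to 100 kb and 25.6% beyond (19.6 to 32.7), with no steady trend.

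At 188 kept sites a RARα control peak overlapped the BATF peak, and the summits of the 2 proteins were a median of 80 bp apart. Seen from the other list, 188 of 504 intergenic RARα control peaks (37.3%, 33.2 to 41.6) overlapped a kept BATF site. The median control fold of BATF was 7.20 at these sites and 6.13 at the 1483 sites with no RARα control peak within 5 kb. The BATF level ratio was alike in both: a median of 0.92 (0.89 to 0.96) at 166 overlapping pairs with RARα on the site and 0.92 (0.90 to 0.94) at 1156 pairs without it, as binomial intervals of the median.

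**Figure D5:**
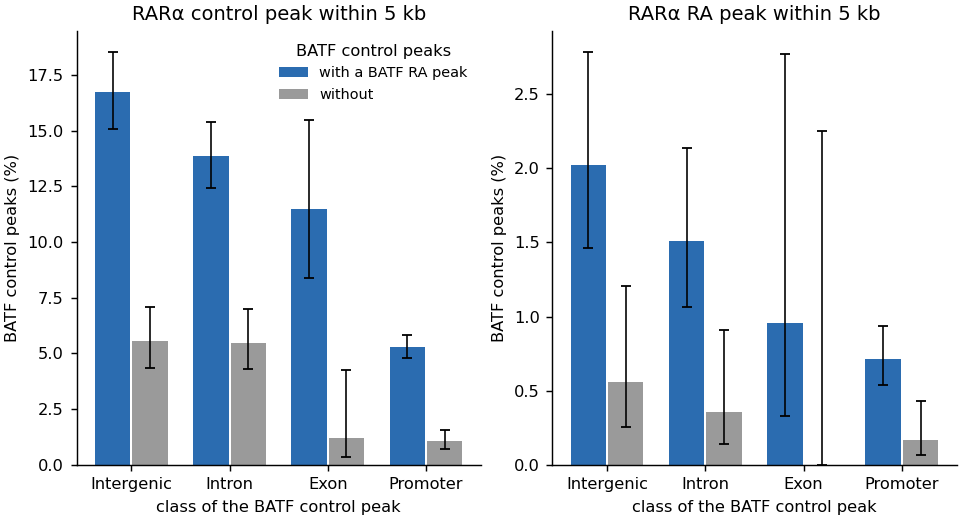
Share of BATF control peaks (y axis, percent) with a RARα control peak (left) or a RARα RA peak (right) within 5 kb, by class and by whether a BATF RA peak lay within 5 kb, with Wilson 95% intervals as bars. Kept intergenic sites have the highest shares, 16.7% and 2.02%, against 5.56% and 0.556% for the other intergenic sites. Kept intronic sites come next, at 13.8% and 1.51%, with overlapping intervals. The vertical scales differ.

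In the RARα RA list, 36 kept sites had a peak within 5 kb (2.02%, 1.46 to 2.79), and 21 overlapped one. The share within 5 kb was 1.51% of kept intronic sites (1.07 to 2.14), an overlapping interval, and 0.841% of all BATF control peaks. Of the 298 sites near a RARα control peak, 29 also had a RARα RA peak within 5 kb (9.73%, 6.86 to 13.6). Few BATF sites of any class had one: of all BATF control peaks, 1132 lay near a RARα control peak and 133 near a RARα RA peak. Of the 21 sites on a RARα RA peak, 18 lay on a RARα control peak as well. The RARα lists had nearly equal depth, and the deposited RA list was the shorter, with 597 peaks against 1172.

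The strongest joint site, at chr8:119423804-119424115, 1767 bp from the oxidative stress gene Osgin1, had a RARα fold of 29.3 in the control and 11.5 with RA, while its BATF fold was 8.59 and 7.72. The site 4778 bp from Adprhl1 and 37.9 kb from the lysosomal gene Lamp1 had a RARα fold of 19.2 and 7.47 and a BATF fold of 13.4 and 14.2. A site between Nsmce1 and Il4ra, 40.4 kb from the latter, had a RARα fold of 10.1 and 6.68 and a BATF fold of 7.90 and 8.51. At all 3 the RARα fold was lower in the RA list, and the BATF level ratios, 0.94, 1.09 and 1.15, had counting intervals that included 1. The 3 sites were named for their high RARα control fold, so the lower RARα fold with RA follows in part from that choice.

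Other sites with RARα in both lists included 1 at 86.9 kb from Ifngr1 (RARα 7.44 and 5.87, BATF 3.62 and 5.72), 1 at 165 kb from Bcl6, a repressor of effector differentiation (RARα 7.38 and 5.40, BATF 3.46 and 4.38), and 1 in the Gimap cluster of lymphocyte GTPases, 5743 bp from Gimap1 (RARα 6.42 and 4.28, BATF 7.24 and 4.44). The site 13.8 kb from Kifbp and 15.7 kb from Srgn, which encodes the granule proteoglycan serglycin, had a RARα fold of 7.06 and 4.06, and its BATF level was 2.12 and 1.04 FPM, a ratio of 0.49 (0.26 to 0.86). The site 9126 bp from Rph3al went the other way for RARα, with 4.38 and 5.56. Strong RARα control peaks with no RARα RA peak on the site lay 29.2 kb from Sgip1 (RARα 10.6, BATF 26.7 and 25.1) and 174 bp from Gimap9 (RARα 9.92, BATF 5.50, with the nearest BATF RA peak apart at 6.55).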

How the data were processed

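RARα and BATF were measured by ChIP-seq, with 1 IgG library as control. The authors aligned reads to mm10 with Bowtie2, pooled 2 files per condition and called peaks with MACS 2.2.7.1 at a p-value of 0.001 (RARα) or 1e-05 (BATF); HOMER is named in the submitters' processing notes. The deposited pileup is a signal, the fragments at a summit, which the authors' peak caller scaled by 0.988 in the BATF control list. The deposited fold enrichment is a ratio, pileup plus 1 over local IgG level plus 1, from which the IgG level was recovered. Each peak's deposited p-value and q-value are given as −log10.

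Peaks were paired within 5 kb, by nearest summit. Levels are fragments per 1000000 (FPM). Nothing was tested between conditions, since each has 1 pooled list. Intervals on level ratios are exact binomial intervals of the fragments, which cover counting error only. Genes were placed with RefSeq on GRCm38.p6, which shares coordinates with mm10, and 11866 of 11910 annotated names matched. That table has no strand, so distances are to genes, not to start sites. Motifs and sequences were not analysed here. Some named sites are not reported here. The pairing was tested on simulated data. The members and gene lists were chosen with earlier results of these data known. Sites were named by rule: the 10 of highest control fold, 5 of lowest and 5 of highest fold ratio among overlapping pairs, 5 of highest RARα control fold, up to 10 on RARα RA peaks, 5 stretches and genes with the most sites, up to 4 sites per gene list, and 5 on each side of the 5 kb limit. Other genes were named from the lists after their values were seen, as were the flanking genes Prdm1, Ackr2, Klf3, Tbc1d1 and Srgn. Analyses used Python 3.11.15, pandas 2.3.3, numpy 2.4.6, scipy 1.17.1 and matplotlib 3.10.9.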

Additional observations from a re-analysis of the deposited data

How the results depend on the processing

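No paired analysis was possible because each condition is 1 pooled peak list with no replicate columns, and for the same reason no replicate could be left out. The 1781 kept sites became 1129 at a −log10 p of at least 10 in both lists and 1000 when they had to lie at least 10 kb from a protein-coding gene. The kept share of 62.3% was 47.9% when overlap was required, 51.9% within 1 kb, 70.5% within 10 kb, 58.6% at a −log10 p of at least 10, 60.4% at a fold of at least 5 and 58.9% with control peaks merged. The median fold ratio of 0.93 was 0.97 with the strongest RA peak within 5 kb, 0.99 without the constant added by the peak caller, 0.90 with overlapping peaks and 0.90 with summits within 100 bp, and the share lower in fold was 53.8%, 51.4%, 66.2% and 66.3% in the same order. The share lower in level, 55.8%, was 64.3% with overlapping peaks and 63.4% with summits within 100 bp, and it turned to 36.7% after division by the median ratio of all kept BATF sites, a scaling that by construction moves every ratio up. The share near a RARα control peak was 10.6% for overlap, 19.9% within 10 kb and 11.5% when RARα peaks had to reach a −log10 p of 5. The share near a RARα RA peak was 1.18% for overlap and 1.40% for those stronger RARα peaks. The median distance to a gene was 14048 bp for overlapping peaks, and 88 of the 324 sites assigned to listed genes lay within 10 kb of the gene. The 9 other values of the 35 stayed within the interval of the main value, or within 1.5 times a count. The alternatives based on gene distance and on summits within 100 bp were chosen after seeing the data, the former because distances to start sites could not be computed. The share of sites with an AP-1 motif, with its windows, was not run. Summits of kept sites held a median of 34 control and 24 RA fragments, which limits the precision of single ratios, and no alternative matched the depths.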
